A study of Homo sapiens with 6 samples.

Results

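Aminoacyl-tRNA synthetases are the enzymes that join each amino acid to its tRNA before translation. The genes described here were chosen by symbol, as all genes named for a cytosolic or mitochondrial synthetase of one amino acid, with EPRS1 and both phenylalanyl subunits FARSA and FARSB included. The rule used no measured value. It found 37 of the 17088 listed genes, 20 for cytosolic and 17 for mitochondrial enzymes, with GARS1 and KARS1, whose products serve both compartments, counted as cytosolic. RNA was sequenced from MDA-MB-231, an established human breast cancer line with mesenchymal features. The control group (VecNC) carried a control vector and the RPPH1 group (VecRPPH1) a vector for overexpression of the noncoding RNA RPPH1, with 3 libraries each. Nothing in the labels says that replicates came from different cultures, and the p-values below therefore reflect library-to-library spread that may be technical. The libraries held 17603126 to 18817269 fragments, recovered from the deposited FPKM values (fragments scaled to gene length and library size), and the transcript of RPPH1 itself was not analysed here.

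RNase P, whose RNA subunit is RPPH1, trims the leading end of precursor tRNAs, and mature tRNAs are the substrates of the synthetases. All the mitochondrial enzymes are encoded in the nucleus and imported. EPRS1 charges tRNAs for both glutamate and proline, and 8 cytosolic enzymes sit with scaffold proteins in the multisynthetase complex. In mitochondria, glutaminyl-tRNA is made by charging with glutamate, by EARS2, followed by amidation. Several cytosolic synthetase genes are known targets of ATF4, the transcription factor of the amino acid response, which binds elements with the core TGATGNAA. The comparison asked whether these genes differed in level when RPPH1 was overexpressed.

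Promoters were read because several of these genes are known to share that response element. RefSeq (GRCh38.p14) promoter windows of 300 bases, 250 before to 50 after a start site, were found for 30 of the 37 genes. TGATGNAA, read on both strands, occurred in 8 of the 30 genes (26.7%), against 236 of 8960 tested genes with a promoter (2.63%). The 8 stretches are shown with the match in capitals, in the direction of the gene, as the letters that these promoters have in common. Matches that begin with TT are the same motif on the opposite strand.
AARS1: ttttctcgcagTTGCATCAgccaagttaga
CARS1: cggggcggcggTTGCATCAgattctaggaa
GARS1: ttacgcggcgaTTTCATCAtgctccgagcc
IARS1: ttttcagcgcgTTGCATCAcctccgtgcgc
MARS1: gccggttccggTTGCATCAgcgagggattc
NARS1: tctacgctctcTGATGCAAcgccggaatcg
TARS1: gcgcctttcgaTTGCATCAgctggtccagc
YARS2: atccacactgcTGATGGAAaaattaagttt
In order, the stretches lie at chr16:70289675-70289704 (minus strand), chr11:3057407-3057436 (minus), chr7:30594834-30594863 (plus), chr9:92293692-92293721 (minus), chr12:57488053-57488082 (plus), chr18:57621804-57621833 (minus), chr5:33440956-33440985 (plus) and chr12:32756076-32756105 (minus). In 5 of them, AARS1, CARS1, IARS1, MARS1 and TARS1, the match reads TTGCATCA, and NARS1 holds the same letters on the other strand. GARS1 and YARS2 differ from these at the free base. Of the 8 genes, 7 encode cytosolic enzymes and YARS2 the mitochondrial tyrosyl enzyme. The E-box CACGTG, which does not overlap those matches, occurred in CARS2, EARS2, IARS1 and MARS2, 4 of the 30 members with a promoter (13.3%) and 12.9% of tested genes with one. A match describes letters in this window and shows neither binding nor control.

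Genes of cytosolic synthetases stood several times higher than those of mitochondrial ones. On the FPKM scale, which is per length, the cytosolic genes had a median level of 65.1 and the mitochondrial genes 7.88, over the mean of all 6 libraries. The tested genes as a whole had a median of 11.3 FPKM, and 19 of 20 cytosolic but 6 of 17 mitochondrial genes lay above it. The groups of genes met at a few members. IARS2, the mitochondrial isoleucyl enzyme, was above 6 of the cytosolic genes, and FARSB was within the mitochondrial range.

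TARS1, the cytosolic threonyl enzyme (chromosome 5, 33440696 to 33469539, plus strand; GRCh38, GENCODE 29, as for all gene positions), had the highest level of the 37, at the 97.4th percentile of tested genes. Its levels were 160, 149 and 149 FPKM in control libraries 1, 2 and 3 and 158, 151 and 156 FPKM in RPPH1 libraries 1, 2 and 3. FARSA, the catalytic alpha subunit of cytosolic phenylalanyl-tRNA synthetase, and GARS1, the glycyl enzyme of both compartments, followed with means of 112 and 107 FPKM. GARS1 was at 104, 106 and 102 FPKM in controls against 111, 106 and 113 FPKM in RPPH1 cells. FARSA and GARS1 overlapped in their values over the libraries and have no order beyond their spread, while TARS1 stood above both in every library.

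The lower end of the cytosolic genes held CARS1 and FARSB. CARS1, the cysteinyl enzyme, had 32.9, 36.6 and 33.6 FPKM in controls against 34.8, 35.4 and 37.2 FPKM in RPPH1 cells. FARSB lay far below it in FPKM, but per kilobase of coding sequence the means were close, 48.4 for CARS1 and 46.7 for FARSB. FARSB, the beta subunit that pairs with FARSA, had 10.2, 8.83 and 8.37 FPKM in controls against 9.31, 8.34 and 8.88 FPKM in RPPH1 cells. CARS1 was the second lowest cytosolic gene by mean, at 35.1 FPKM.

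The level of FARSB depended on the length used to scale it. FARSA and FARSB proteins form one enzyme with equal numbers of both subunits, but FARSA exceeded FARSB 11.3 to 13.4 times in FPKM in every library. The length behind the deposited FPKM, recovered from the values, was 9191 bases for FARSB, 2.73 times its longest GENCODE transcript (chromosome 2, 222570536 to 222656337, minus strand), and 1811 bases for FARSA (chromosome 19, 12922479 to 12934037, minus strand). In fragments, before any division by length, FARSA exceeded FARSB 2.23 to 2.64 times. Per kilobase of coding sequence the ratio was 2.39 to 2.84. RARS2, FARS2 and EARS2 were likewise scaled by lengths above their longest transcript, 2.2, 1.71 and 1.45 times.

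Among mitochondrial enzymes, IARS2 (chromosome 1, 220094102 to 220148041, plus strand) was far above the rest. It had 58.0, 61.4 and 58.1 FPKM in controls against 62.2, 61.2 and 60.03 FPKM in RPPH1 cells, and the next gene, HARS2, had a mean of 17.4 FPKM. HARS2, the histidyl enzyme, had 18.8, 18.8 and 15.8 FPKM in controls against 15.7, 17.2 and 18.4 FPKM in RPPH1 cells. TARS2, the threonyl enzyme, had 18.5, 16.8 and 17.3 FPKM in controls against 16.1, 16.8 and 17.0 FPKM in RPPH1 cells, and did not separate from HARS2.

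The lowest levels in FPKM belonged to FARS2, EARS2 and PARS2. FARS2, the single-chain mitochondrial phenylalanyl enzyme, had 2.97, 2.74 and 3.12 FPKM in controls against 3.10, 3.02 and 2.98 FPKM in RPPH1 cells, at the 15th percentile of tested genes. EARS2, the glutamyl enzyme, had 4.66, 4.37 and 3.64 FPKM in controls against 3.95, 4.15 and 4.33 FPKM in RPPH1 cells. PARS2, the prolyl enzyme (chromosome 1, 54756898 to 54764514, minus strand), had 5.71, 5.29 and 4.999 FPKM in controls against 6.04, 5.98 and 5.69 FPKM in RPPH1 cells. In FPKM, FARS2 lay below EARS2 and EARS2 below PARS2 in every library. These genes still had 216 or more fragments in each library. This order depended on the length used. Per kilobase of coding sequence PARS2, not FARS2, was the lowest member, with a mean of 9.29 against 14.6 for FARS2 and 15 for EARS2. AARS2 at 11.5 and MARS2 at 11.8 then also lay below FARS2 and EARS2.

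**Figure D1:**
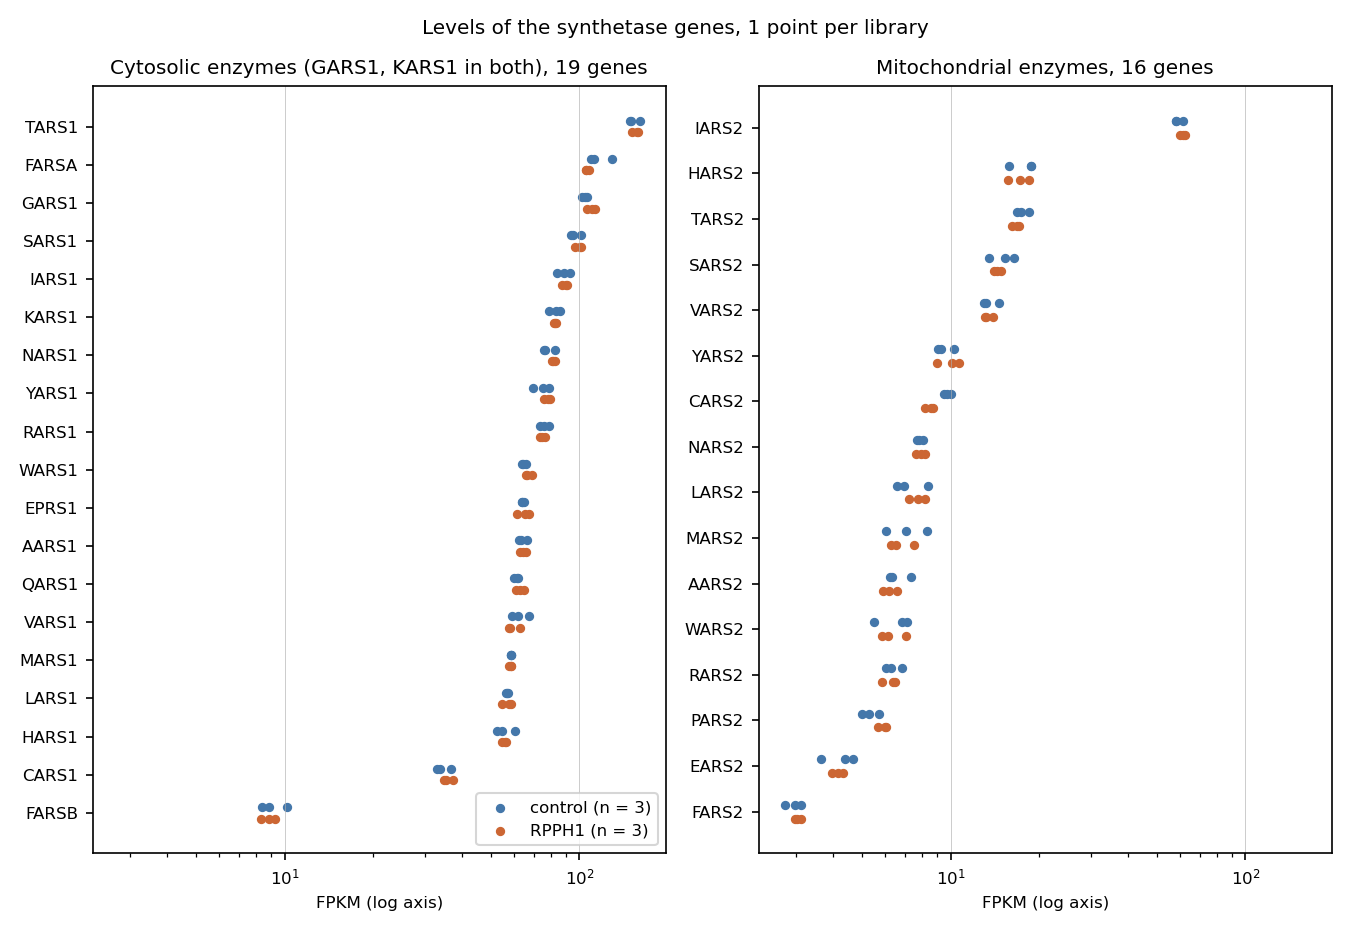
FPKM of 35 synthetase genes on a log axis, 1 point per library (3 control, 3 RPPH1), with cytosolic genes on the left and mitochondrial genes on the right, each ordered by mean level. Cytosolic levels run from 8.98 for FARSB to 154 for TARS1 and mitochondrial levels from 2.99 for FARS2 to 60.2 for IARS2, and the points of both groups lie close together for each gene.

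For each amino acid with a separate mitochondrial gene, the cytosolic level was divided by the mitochondrial level within each library. This gave 18 pairs for 17 amino acids, with EPRS1 used for both glutamate and proline and the phenylalanyl subunits used separately. The cytosolic gene was higher in all 18 pairs, with a median ratio of 8.19. Per kilobase of coding sequence all 18 were again above 1, with a median of 5.33.

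The ratio ranged widely between amino acids. In FPKM it was highest for FARSA over FARS2, at 43.5, 39.9 and 36 in controls and 33.9, 34.9 and 36.3 in RPPH1 cells. Per coding kilobase that ratio was 8.40, below NARS1 over NARS2 at 9.20 and TARS1 over TARS2 at 8.98. EPRS1 over EARS2 followed at 13.9, 14.6 and 17.5 in controls and 17.0, 14.7 and 15.1 in RPPH1 cells, but per coding kilobase it was 4.60, under the median. Both pairs hold one of the 3 lowest mitochondrial genes by FPKM.

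The ratio was lowest for isoleucine, where IARS1 over IARS2 was 1.6, 1.45 and 1.44 in controls and 1.44, 1.42 and 1.52 in RPPH1 cells. FARSB over FARS2 was 3.42, 3.23 and 2.68 in controls and 3, 2.76 and 2.99 in RPPH1 cells. The isoleucine ratio lay below that of every other pair in every library, and IARS1 exceeded IARS2 in all 6.

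The ratio did not overlap between groups for 3 of the 18 pairs. CARS1 over CARS2 was 3.28, 3.76 and 3.54 in controls and 4.26, 4.05 and 4.33 in RPPH1 cells. TARS1 over TARS2 was 8.68, 8.86 and 8.64 in controls and 9.82, 8.99 and 9.19 in RPPH1 cells. VARS1 over VARS2 went the other way, with 4.62, 4.58 and 4.69 in controls and 4.41, 4.43 and 4.49 in RPPH1 cells. An exact permutation test of 3 against 3 libraries cannot give a two-sided p below 0.1, and the ratios are given as a description with no test. Of single tested genes, 13.9% had groups that did not overlap.

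**Figure D2:**
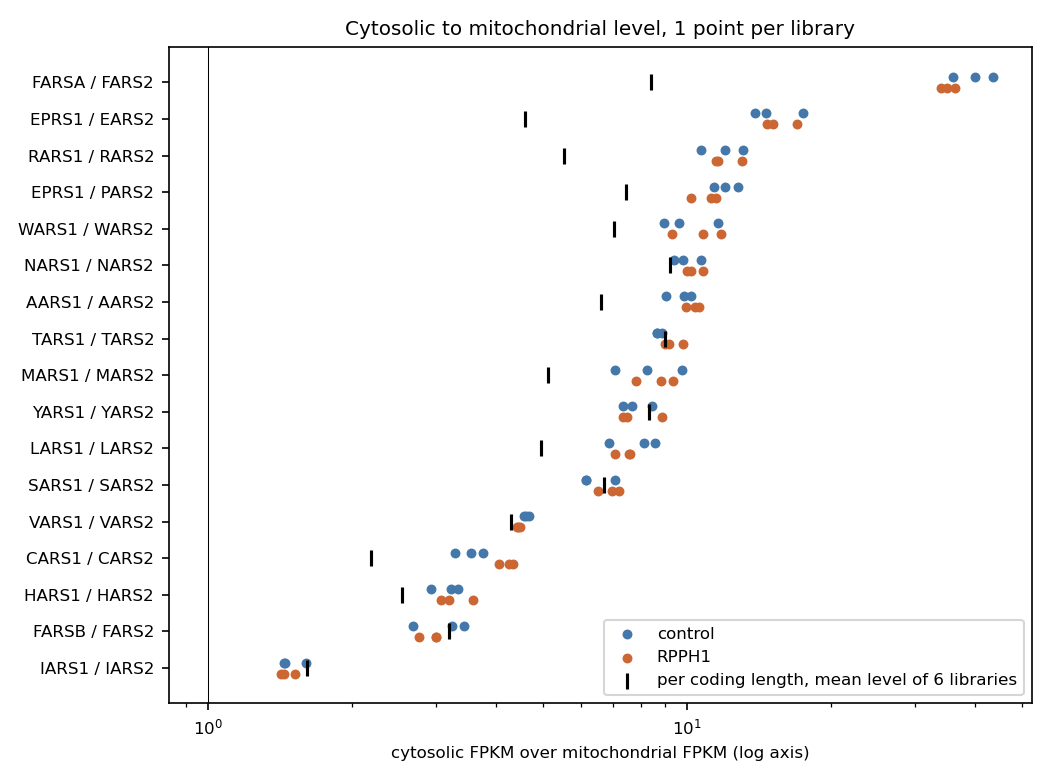
Cytosolic FPKM divided by mitochondrial FPKM for 17 pairs of genes on a log axis, 1 point per library, with a black tick for the ratio per coding length over the mean of 6 libraries. All points lie above 1, from 1.42 for IARS1 over IARS2 to 43.5 for FARSA over FARS2, and control and RPPH1 points do not overlap for the CARS, TARS and VARS pairs.

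No synthetase gene passed the test between RPPH1 and control cells. With limma on log2(FPKM + 1), 0 of 37 members had an adjusted p under 0.05 (Benjamini-Hochberg over all 10909 tested genes), where 0.00917% of all tested genes, 1 gene, passed. With limma-voom on the recovered fragments 0 of 37 passed against 0.156% of tested genes. At an unadjusted limma p under 0.05 there were 2 members, CARS2 and FARSA, or 5.41%, against 7.97% of tested genes, and limma-voom also gave 2, against 8.67%. The values of control and RPPH1 libraries did not overlap for 4 members, or 10.8%, against 13.9% of tested genes. Of these, 2 were higher (7.98% of tested genes were) and 2 lower (5.88% of tested genes were). The members' shares were thus no higher than those of all genes. In bulk libraries, fewer cells of a kind and less RNA per cell cannot be told apart.

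The fitted differences were small. Each of the 37 had a 95% limma interval of its log2 fold change within -0.29 and 0.26, the lower bound from CARS2 and the upper from PARS2. On recovered fragments limma-voom gave larger errors for both, with a log2 fold change of -0.20 (SE 0.065) for CARS2 and 0.15 (SE 0.10) for PARS2. RPPH1 means were higher for 20 members and lower for 17. The median log2 fold change was 0.0042 over the members and 0.0046 over all tested genes. For the 20 cytosolic genes 13 means were higher and the median was 0.011. For the 17 mitochondrial genes 7 were higher and the median was -0.018. The sign of the mitochondrial median rested on single libraries, since it was 0.033 without control library 1, 0.0040 without control library 2 and 0.0065 without RPPH1 library 1. The 8 enzymes of the multisynthetase complex (among them EPRS1, IARS1, LARS1 and MARS1) had fitted log2 fold changes of -0.025 to 0.042, 5 with higher means, and none was free of overlap between groups.

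**Figure D3:**
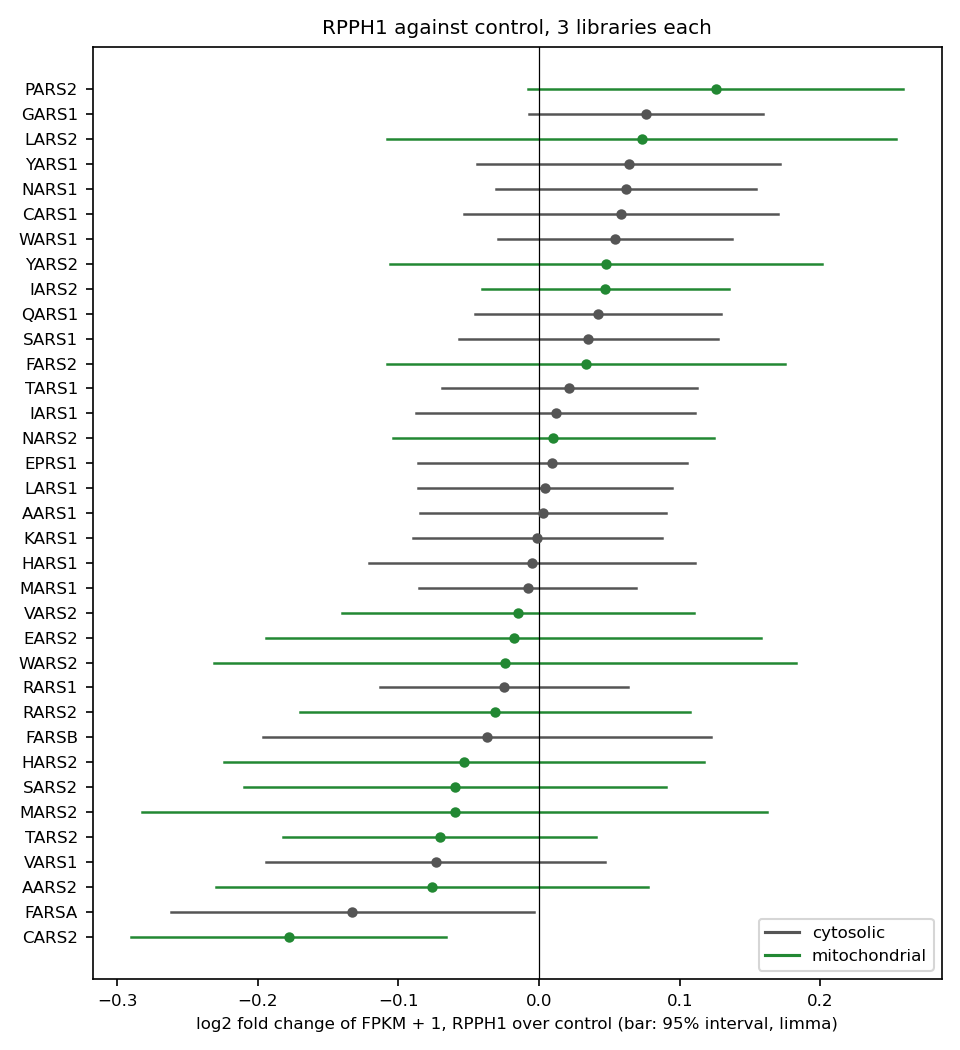
Log2 fold change of FPKM + 1, RPPH1 over control, for 35 genes, each with its 95% limma interval, cytosolic genes in grey and mitochondrial genes in green (3 libraries per group). The intervals of CARS2 and FARSA lie below 0 before adjustment, those of the other genes cross it, and all lie between -0.29 and 0.26.

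CARS2, the mitochondrial cysteinyl enzyme, had the smallest p of the members. It lies on chromosome 13 (110641412 to 110713603, minus strand). Its levels were 10.01, 9.73 and 9.49 FPKM in controls against 8.16, 8.74 and 8.59 FPKM in RPPH1 cells, and all RPPH1 libraries were below all controls. The means were 9.74 ± 0.26 and 8.50 ± 0.30 FPKM (SD, n = 3 per group), 12.8% lower in RPPH1 cells, from 771, 725 and 712 fragments against 610, 642 and 619. The limma log2 fold change was -0.18 (SE 0.050), with an unadjusted p of 0.0054 and an adjusted p of 0.42. Over the 12 alternative settings tried, all of them limma fits, the fold change ran from -0.20 to -0.15 and the adjusted p from 0.33 to 0.93. CARS1, the cytosolic counterpart, had overlapping groups, with a limma log2 fold change of 0.058 (SE 0.050) and an adjusted p of 0.80.

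FARSA had the second smallest p, and 1 control library carried much of its difference. Its levels were 129, 109 and 112 FPKM in controls against 105, 105 and 108 FPKM in RPPH1 cells. The groups did not overlap, but control library 1 stood above the other 5 libraries. The means were 117 ± 10.7 and 106 ± 1.6 FPKM (SD, n = 3 per group), and the limma log2 fold change was -0.13 (SE 0.058), with an adjusted p of 0.62. Without control library 1 it was -0.060 by limma (unadjusted p 0.13). FARSB, its partner subunit, had a log2 fold change of -0.037 (SE 0.071), with overlapping groups.

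PARS2 had the largest fitted fold change upward. The lowest RPPH1 value, 5.69 FPKM, fell just under the highest control value, 5.71 FPKM. Its limma log2 fold change was 0.13 (SE 0.060), with an unadjusted p of 0.063 and an adjusted p of 0.65. EPRS1, which charges the cytosolic prolyl tRNAs, had a log2 fold change of 0.0095 (SE 0.043).

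GARS1 and WARS1 were the members with all RPPH1 libraries above all controls. GARS1 lies on chromosome 7 (30594681 to 30634033, plus strand) and its means were 104 ± 1.7 and 110 ± 3.4 FPKM (SD, n = 3 per group). The lowest RPPH1 value of GARS1, 106.1 FPKM, was just above its highest control value, 105.8 FPKM, a gap below the spread of either group. Its limma log2 fold change was 0.076 (SE 0.037), with an adjusted p of 0.67. WARS1, the cytosolic tryptophanyl enzyme, known as a gene induced by interferon gamma, had 65.99, 63.7 and 64.1 FPKM in controls against 66.01, 68.9 and 66.4 FPKM in RPPH1 cells. Its lowest RPPH1 value exceeded its highest control value by less than the spread of either group. Its limma log2 fold change was 0.054 (SE 0.037), with an adjusted p of 0.74. Without RPPH1 library 2 it was 0.035.

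**Figure D4:**
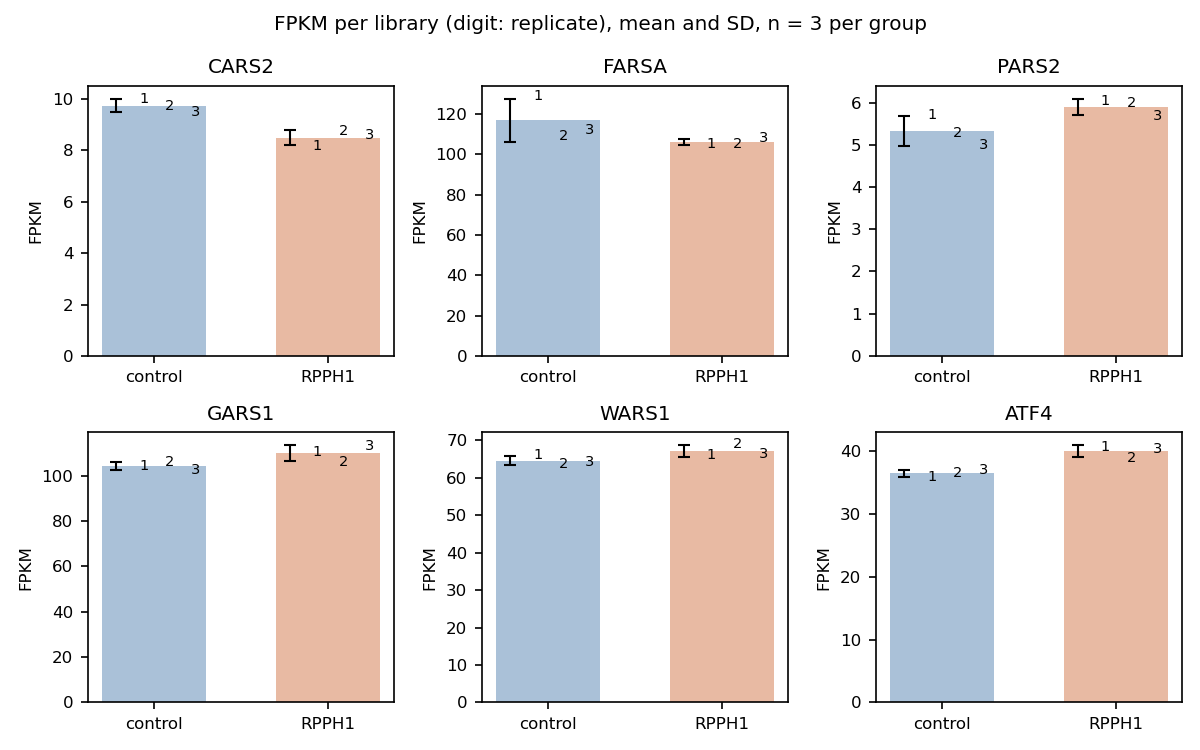
FPKM in each library, marked by its replicate digit, with bars for the mean and whiskers for the SD (n = 3 per group), for CARS2, FARSA, PARS2, GARS1, WARS1 and ATF4. CARS2 is lower in all RPPH1 libraries, FARSA is high in control library 1, PARS2 overlaps, and GARS1, WARS1 and ATF4 are higher in all RPPH1 libraries.

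The 8 genes with TGATGNAA in their promoters were then read together. RPPH1 means were higher for 7 of the 8, with MARS1 as the exception, and the median log2 fold change was 0.035, against 0.0046 over all tested genes, of which 52.3% had higher means. Without RPPH1 library 3 this was 4 of 8 with a median of 0.0067, without control library 3 it was 5 of 8 with a median of 0.010, and with median-of-ratios rescaling 6 of 8 were higher. None had an unadjusted limma or limma-voom p under 0.05, and GARS1 alone had groups that did not overlap, 12.5% of the 8 against 13.9% of tested genes. RPPH1 library 3 was above the control mean for all 8.

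The spread between control libraries was wider than between RPPH1 libraries. The median coefficient of variation of the 37 genes was 5.69% in controls and 3.16% in RPPH1 cells, against a counting error of 2.14% in either. Without control library 1 the control value was 3.01%, from fewer libraries than the RPPH1 value. A coefficient from fewer libraries tends to be lower, so the groups cannot be ranked without that library. Control library 1 had the highest value of the 6 for 19 members (51.4%), while it was highest for 24.2% of all tested genes. Control library 3 was lowest for 13 members (35.1%), against 16.2% of all tested genes. Cytosolic and mitochondrial genes moved alike in this, with control library 1 highest for 10 of 20 and 9 of 17. AARS2, the alanyl enzyme of mitochondria, is an example, with 7.32, 6.22 and 6.35 FPKM in controls against 5.90, 6.18 and 6.60 FPKM in RPPH1 cells. VARS1, the cytosolic valyl enzyme, is another, with 67.4, 59.3 and 61.7 FPKM in controls against 58.2, 57.9 and 62.7 FPKM in RPPH1 cells. Without control library 1 the limma log2 fold change of AARS2 went from -0.076 to -0.012 and that of VARS1 from -0.073 to -0.022.

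**Figure D5:**
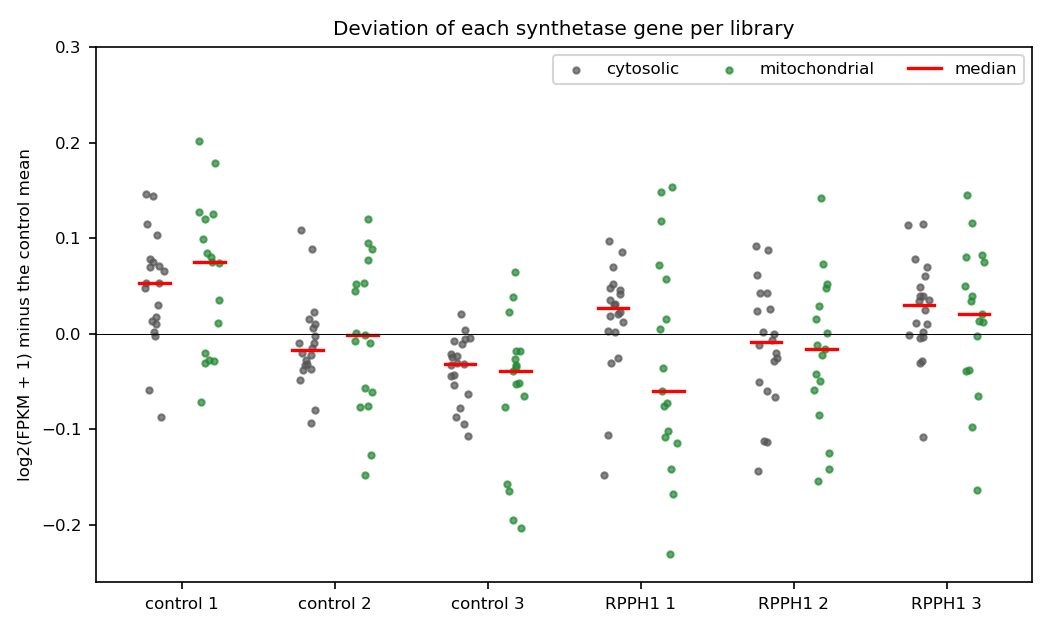
Deviation of each synthetase gene from its control mean, in log2(FPKM + 1), for each of the 6 libraries, with cytosolic genes in grey, mitochondrial genes in green and the median in red. Medians are highest in control library 1 (0.053 cytosolic, 0.075 mitochondrial), and the lowest are -0.031 for cytosolic genes in control library 3 and -0.060 for mitochondrial genes in RPPH1 library 1.

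Several members share their start region with another gene. HARS1 and HARS2, which encode the cytosolic and mitochondrial histidyl enzymes, point away from each other, with RefSeq start sites 85 bases apart on chromosome 5. HARS1 had 60.5, 54.8 and 52.5 FPKM in controls against 55.9, 54.7 and 56.2 FPKM in RPPH1 cells, on average 3.21 times the level of HARS2. The pair share 437 bases of annotated exon on opposite strands. The libraries were stranded, but strand use in the counting is not stated, so reads of this stretch may not have been separated. Start sites pointing apart within 1000 bases were found for 8 of the 30 members with a promoter (26.7%), against 16.6% of tested genes with one, HARS1 and HARS2 counting as 2 of the 8. With outermost gene starts from GENCODE 29 and protein-coding neighbours the same distance gave 3 of 37 members (8.11%) and 10.3% of tested genes. This count leaves out pairs that overlap at their starts, as HARS1 and HARS2 do in GENCODE. The order of these shares thus depends on the annotation and on the start sites taken. By GENCODE starts alone, the start of DDX19B lay 120 bases from that of AARS1. By RefSeq starts the other partners were UBFD1 for EARS2, LYRM4 for FARS2, TERF2IP for KARS1, ORC3 for RARS2, MRPS12 for SARS2 and WDR25 for WARS1. MRPS12, a mitochondrial ribosomal protein gene, had 49.2, 41.2 and 41.3 FPKM in controls against 46.4, 45.7 and 46.0 FPKM in RPPH1 cells. SARS2 had 16.5, 13.5 and 15.3 FPKM in controls against 14.4, 14.8 and 13.98 FPKM in RPPH1 cells. None of these 6 RefSeq partners passed the limma test, the smallest adjusted p being 0.73 for TERF2IP. The levels of SARS2 and VARS2 are less certain than others, because 46.2% and 22% of their exon bases also belong to another gene on the same strand. GENCODE lists processed pseudogenes for several members, among them KARS1, CARS1, GARS1 and FARSB, and reads shared with such copies were assigned by the authors' pipeline in a way not given in the sources used here.

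Genes that work beside the synthetases also gave no call. The scaffolds of the multisynthetase complex, AIMP1, AIMP2 and EEF1E1, had 18.6, 28.3 and 48.3 FPKM in controls against 18.7, 26.7 and 47.1 FPKM in RPPH1 cells, and 0 of 3 passed the limma test. In all 3, control library 1 was again the highest. Of 6 tested genes that act on or with mitochondrial tRNAs around charging (MTFMT, GATB, GATC, QRSL1, TUFM and TRNT1), 0 passed and 4 had higher means. QRSL1, a subunit of the amidotransferase that makes glutaminyl-tRNA, had 4.50, 4.73 and 4.15 FPKM in controls against 4.94, 4.69 and 5.37 FPKM in RPPH1 cells, with overlapping groups (limma adjusted p 0.67). GATC, another subunit, went from a mean of 19.6 to 19.3 FPKM.

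Of 5 tested genes listed with the delivery of charged tRNA (EEF1A1, EEF1B2, EEF1D, EEF1G and XPOT), 0 passed and 2 had higher means. EEF1A1, the elongation factor that carries charged tRNA to the ribosome, had 2208 to 2355 FPKM over all libraries. EEF1B2 went from a mean of 302 to 309 FPKM and EEF1G from 683 to 666 FPKM, both being subunits of its exchange factor. Of 7 tested genes for proofreading and the selenocysteine route, 0 passed and 4 had higher means. SEPHS2, a selenophosphate synthetase, went from 28.6 to 29.6 FPKM and DTD1, a deacylase for D-amino acids, from 24.7 to 23.7 FPKM. TARS3, a cytosolic threonyl paralog that the symbol rule does not take, stood at 1.46 ± 0.15 and 1.2 ± 0.26 FPKM (SD, n = 3 per group).

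ATF4 itself was the companion gene with the smallest p. It had 35.98, 36.5 and 36.98 FPKM in controls against 40.8, 38.9 and 40.3 FPKM in RPPH1 cells, and all RPPH1 libraries were above all controls. The limma log2 fold change was 0.13 (SE 0.039), with an unadjusted p of 0.0078 and an adjusted p of 0.47, so it did not pass. Of the 20 tested genes of the list of ATF4 and its known targets, 0 passed, 13 had higher means and the median log2 fold change was 0.040. The values of PSAT1 and PHGDH, enzymes of serine synthesis, also did not overlap and were higher, so that 3 of 20 (15%) did not overlap, against 13.9% of tested genes, with means of 59.0 and 62.8 FPKM and of 4.48 and 4.90 FPKM. PYCR1, an enzyme of proline synthesis, had the smallest p downward, from 37.3 to 34.1 FPKM with overlapping groups (limma adjusted p 0.66).

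Of 8 genes for amino acid sensing and mTORC1, 0 passed and 6 had lower means. RPTOR, a subunit of mTORC1, had 20.7, 21.1 and 21.5 FPKM in controls against 19.5, 19.95 and 19.8 FPKM in RPPH1 cells (limma adjusted p 0.62). EIF2AK4, the kinase that senses uncharged tRNA, had 18.8, 17.9 and 18.5 FPKM in controls against 17.1, 16.8 and 17.6 FPKM in RPPH1 cells (limma adjusted p 0.65). Both had all RPPH1 libraries below all controls, as 5.88% of tested genes did. RRAGC, a small GTPase of the same pathway, had the smallest p upward, from 26.9 to 27.8 FPKM. Of 6 tested interferon gamma response genes, which were read beside WARS1, 0 passed and 4 had higher means, with PSMB9 from 22.2 to 23.2 FPKM.

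The cell line label was checked against markers. VIM, CD44 and AXL, mesenchymal markers, had control means of 2699, 217 and 204 FPKM. ESR1 and CDH1, markers of luminal and epithelial cells, reached at most 0.0173 and 0.144 FPKM in any library. The other 3 markers of this list were expressed, ERBB2 at 12 and 12.4 FPKM, EPCAM at 6.86 and 6.71 FPKM and GATA3 at 2.8 and 3.3 FPKM in control and RPPH1 cells, and the GATA3 groups did not overlap. Markers of blood, endothelial, fat and stromal cells were all too low to be tested, PECAM1 being the highest at 0.58 FPKM in controls against 0.77 FPKM in RPPH1 cells.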

How the data were processed

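The deposited table held FPKM for 17088 genes in 6 libraries, 1 column each, made by the authors from stranded TruSeq mRNA libraries. Trimmomatic, HISAT2, Cufflinks and GRCh38 are named in the submitters' processing notes; the annotation release and the strand setting are not given in the sources used here. FPKM hides depth, so whole fragments, gene lengths and library totals were recovered from the steps in the values, and in 100% of tested genes all values were whole within 0.01 fragments plus a relative 3e-08. Replicates differed beyond counting noise and each was counted as 1 sample.

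The filter kept 10909 genes that reached 1 FPKM in 3 or more libraries, all 37 synthetase genes among them. Their log2(FPKM + 1) values were compared by limma (version 3.58.1, R 4.3.3), with group as the sole term and its empirical Bayes prior fitted as a trend on mean level, after a check on simulated data. Fold changes on this scale understate those of low genes. P-values were adjusted by the Benjamini-Hochberg method across all tested genes. Alternatives were a pseudocount of 0.1, no filter, a filter at 5 FPKM, the replicate number as a block, limma-voom on recovered fragments, median-of-ratios rescaling and leaving out each library. The members and the companion lists were chosen with earlier results of these data known. Values in every library were given for members with a p under 0.05, members with groups that did not overlap and a log2 fold change of at least 0.1 in size, the 3 highest and lowest genes per compartment and the extreme pairs. GARS1, WARS1, AARS2, VARS1, HARS1, SARS2, MRPS12 and companion genes beyond the smallest p in each direction were chosen after their values were seen. Gene positions and exons came from GENCODE 29 and promoters from RefSeq. All columns of per-sample values were used. Results of a few genes are not reported here, although they are part of the counts and medians.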

Additional observations from a re-analysis of the deposited data

How the results depend on the processing

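Of the synthetase genes, 0 passed at an adjusted p under 0.05 in the main limma test and in all 12 alternatives; 35 members were tested with the filter at 5 FPKM and 37 otherwise. The median log2 fold changes moved by less than the spread between control libraries, from 0.00093 to 0.032 (cytosolic) and from -0.041 to 0.033 (mitochondrial) when single libraries were left out. The number of all genes called, 1, was 0 with no filter, 8 with the filter at 5 FPKM, 17 with limma-voom and 0 with the replicate block, and ran from 0 to 7 when single libraries were left out; the cause was not tested. Same-numbered libraries had deviations with correlations of 0.057, 0.018 and -0.10. These values showed no pairing by number but cannot exclude it. Control library 1 correlated best with RPPH1 library 3, and with the replicate block CARS2 had a limma adjusted p of 0.60. The median cytosolic to mitochondrial ratio, 8.19, was 5.33 per kilobase of coding length, an alternative chosen after seeing the data, and 8.08 to 8.31 without single libraries. The median coefficient of variation in controls, 5.69%, was 3.01% to 5.02% without single control libraries, lowest without library 1. These values rest on fewer libraries, which tends to lower them. Depth limits the lowest genes, such as PARS2 with 216 fragments in control library 3.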

Other observations

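Members also differed in spread between libraries, and in controls 32 of the 37 were above their counting error. The count was 24 in RPPH1 libraries and 23 in controls without library 1. The share over all tested genes was not computed, so these counts are not particular to the members. MARS1, the cytosolic methionyl enzyme, had 58.5, 58.5 and 58.8 FPKM in controls, a coefficient of variation of 0.275% that is smaller than its counting error of 1.82%. MARS2, its mitochondrial counterpart, had 8.29, 7.08 and 6.02 FPKM in controls, or 15.9%, against a counting error of 5.01%. MARS1 and MARS2 were the lowest and highest of the 37 in controls, and whether such extremes exceed chance was not tested. Without control library 1 the widest control spread was that of WARS2, at 17.8%. Grouped by the fold of the catalytic domain, the 18 class I enzymes had 9 higher and 9 lower RPPH1 means (median -0.0019 in log2 fold change), and the 18 class II enzymes had 10 higher and 8 lower (median 0.0062), EPRS1 holding both folds.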
